A study of Mus musculus with 3 samples.

Results

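Polyadenylated messenger RNA of the mouse melanoma cell lines B16-F1 and Cloudman S91 was compared gene by gene, from a single library of each (1 against 1). Both derive from melanoma of the skin, B16-F1 from the strain C57BL/6J and Cloudman S91 from a strain labelled DBA. Both were grown in DMEM with 10% fetal bovine serum, carry no treatment or engineered allele in the labels, and were processed by the same company with the same gene models. The lines differ in strain as well as in tumour, so line and strain cannot be told apart, and each line is a single cell population that stands for no other melanoma. Another library of the series, the mammary carcinoma line 4T1, was used only for reference levels. Of the 15528 named genes in the 3 tables, 14747 were listed in at least 1 melanoma table, and the 11132 with an FPKM (fragments per kilobase of transcript, scaled to sequencing depth) of 1 or more in at least 1 of the 2 melanoma libraries were compared. With no replicates there is no test and no spread between samples, so a gene was called by size alone, when log2(FPKM + 1) differed by 2 or more, which is 4-fold on that scale. Differences are given as B16-F1 minus Cloudman S91, and the scale understates the fold of low genes.

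Melanoma arises from melanocytes, the pigment cells that derive from the neural crest. Melanocytes build melanin inside melanosomes, organelles related to lysosomes, with the enzymes tyrosinase (Tyr), Tyrp1 and dopachrome tautomerase (Dct) on a scaffold made by Pmel. The transcription factors Mitf, Sox10 and Pax3 drive these genes, and surface receptors such as Mc1r, Kit and Ednrb connect them to signals from skin cells. Both libraries held transcripts of these factors at close levels. Mitf had an FPKM of 133 in B16-F1 and 144 in Cloudman S91, Sox10 had 204 and 175, and Pax3 had 49.6 and 59.9.

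The promoters of 4 pigment genes are shown because Tyr differed between the lines while Tyrp1 and Dct, with the same motif, did not pass the size rule. Each is the RefSeq window of GRCm38.p6 from 250 bases before to 50 bases after the gene's most upstream start, 5′ to 3′ on the gene's strand. Capitals mark CATGTG on either strand (CACATG on the printed strand is the same motif read from the other side), which is the core of the M-box that Mitf can bind.
Tyr (chr7:87493463-87493762, minus strand): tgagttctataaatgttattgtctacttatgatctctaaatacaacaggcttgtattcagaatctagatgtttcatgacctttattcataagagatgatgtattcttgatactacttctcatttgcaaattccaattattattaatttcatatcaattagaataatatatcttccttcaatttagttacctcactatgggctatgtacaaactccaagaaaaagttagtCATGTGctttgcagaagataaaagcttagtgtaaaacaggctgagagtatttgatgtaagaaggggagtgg
Tyrp1 (chr4:80833963-80834262, plus strand): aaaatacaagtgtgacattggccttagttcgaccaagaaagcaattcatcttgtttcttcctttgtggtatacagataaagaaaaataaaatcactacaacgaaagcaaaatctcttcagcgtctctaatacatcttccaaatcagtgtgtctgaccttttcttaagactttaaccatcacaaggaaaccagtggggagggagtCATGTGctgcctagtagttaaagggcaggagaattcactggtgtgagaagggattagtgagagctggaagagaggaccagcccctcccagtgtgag
Dct (chr14:118052197-118052496, minus strand): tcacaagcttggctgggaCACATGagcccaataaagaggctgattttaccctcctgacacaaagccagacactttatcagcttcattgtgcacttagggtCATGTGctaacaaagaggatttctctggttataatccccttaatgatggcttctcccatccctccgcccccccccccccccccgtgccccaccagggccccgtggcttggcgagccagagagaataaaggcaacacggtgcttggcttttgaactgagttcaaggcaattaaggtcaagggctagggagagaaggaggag
Slc24a4 (chr12:102128477-102128776, plus strand): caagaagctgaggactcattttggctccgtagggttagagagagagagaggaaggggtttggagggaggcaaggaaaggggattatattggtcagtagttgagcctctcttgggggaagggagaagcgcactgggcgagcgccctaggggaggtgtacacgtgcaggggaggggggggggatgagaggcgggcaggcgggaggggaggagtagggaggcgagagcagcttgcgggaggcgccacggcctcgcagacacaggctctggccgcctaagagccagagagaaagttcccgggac
The motif was in the windows of Tyr, Tyrp1 and Dct and not in the window of Slc24a4. Only this motif was marked, and other sequences that Mitf may bind were not looked for. Such a match is only a description of these letters: 8.06% of the 9007 compared genes with a window held CATGTG, and 14.1% of all 27025 windows did.

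By the size rule, 614 of the 11132 genes (5.52%) were called. B16-F1 had the higher level for 259 of them (2.33%) and Cloudman S91 for 355 (3.19%). For 80.0% of the genes the difference was under 2-fold on this scale. The median difference over all genes was 0.14, with quartiles of -0.30 and 0.57, and 58.9% of the genes lay above 0. This median is a property of the scaling as well as of the cells. It moved to 0.03 with median-of-ratios scaling, to -0.03 with upper-quartile scaling and to -0.10 with TPM computed without the 50 most abundant genes, so each list below is read against the median of all genes. The calls in a list are likewise read against the shares of all genes, 2.33% and 3.19% by direction and 5.52% in all. Across the 11132 genes, which are not independent replicates, Pearson's r of log2(FPKM + 1) was 0.850 and Spearman's rho was 0.864.

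**Figure D1:**
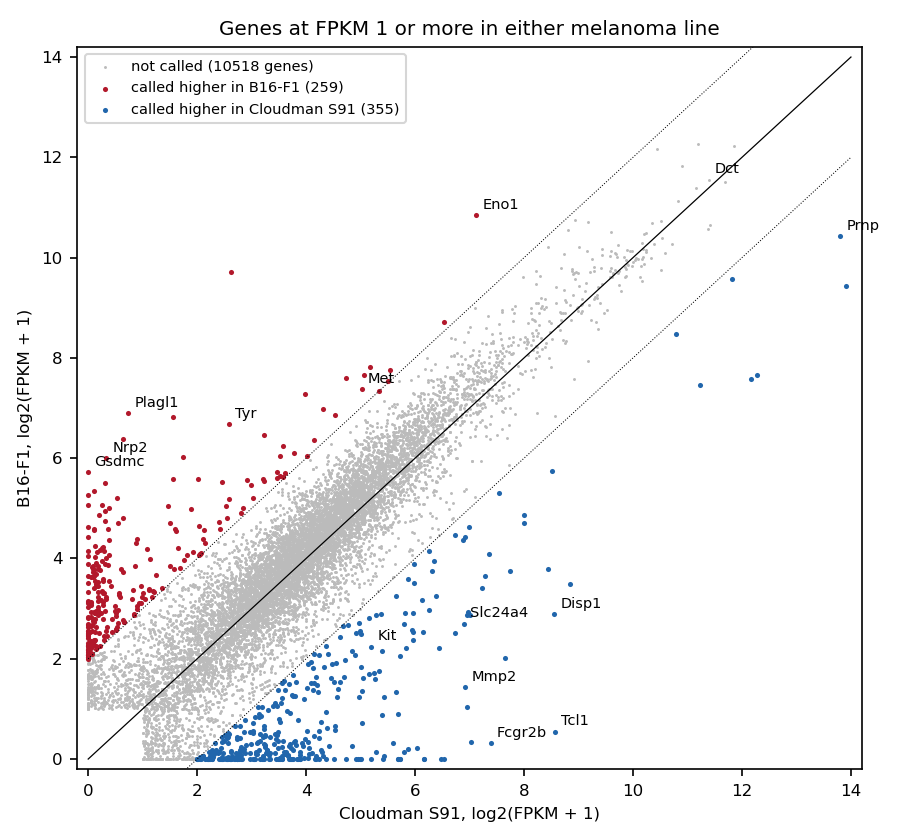
Level of each of the 11132 genes in Cloudman S91 (horizontal) and B16-F1 (vertical) as log2(FPKM + 1), with the line of equality solid and the size rule of 2 dotted. Most genes lie between the dotted lines, 259 lie above them (red) and 355 below (blue), and many called genes sit at or near 0 in the line where they are lower.

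The called genes were mostly genes near the detection limit in the other line. The lower line was below FPKM 1 for 186 of the 259 genes higher in B16-F1 (71.8%) and for 239 of the 355 higher in Cloudman S91 (67.3%), against 8.06% of the genes not called. The median FPKM in the higher line was 9.98 for the first group and 12.0 for the second, and in the lower line it was 0.23 and 0.26. The size rule itself favours such genes, so this is a description of what was called. The mammary line 4T1 reached FPKM 1 for 61.8% of the genes called higher in B16-F1, 42.0% of those called higher in Cloudman S91 and 89.8% of those not called. The CG content of the promoters also differed. The median number of CG dinucleotides in the 300-base window was 17 for genes called higher in B16-F1 (196 windows), 14 for those higher in Cloudman S91 (259 windows) and 22 for genes not called (8552 windows). CG-rich windows are typical of genes that are active in many cell types.

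The libraries were of similar depth, with totals of 9098072 expected counts in B16-F1 and 7412840 in Cloudman S91, and a few genes took a larger share of the second. The 10 genes with the most counts held 5.83% of the counts in B16-F1 and 15.3% in Cloudman S91. Prnp (the prion protein, a copper-binding membrane protein) had an FPKM of 1382 in B16-F1 and 14280 in Cloudman S91, Slc38a6 (a member of an amino acid transporter family) had 199.9 and 4929, Adamts13 (the protease that cuts von Willebrand factor) had 190 and 4618, and Sectm1a had 756 and 3584. The predicted gene Gm13710 had 687 and 15425, the highest value of all. The counts of these 5 genes were not whole numbers in Cloudman S91, and Slc38a6, Adamts13 and Sectm1a include transcripts that the authors assembled, so their levels are uncertain. Other abundant genes did not pass the size rule: Eef1a1, a translation elongation factor, had 4811 and 3690, Ftl1, ferritin light chain, had 4936 and 2334, and Ppia, cyclophilin A, had 3643 and 1910. The markers of other cell types were low, with 1 of 16 macrophage, 0 of 14 lymphocyte, 1 of 10 keratinocyte and 2 of 11 endothelial markers reaching FPKM 1 in either library. The endothelial 2 were Egfl7 (6.98 and 30.9) and Vwf (0.94 and 11.6), while Pecam1 and Cdh5 stood at 0.11 or less in both. Of 14 muscle and erythroid markers 8 reached FPKM 1, with summed FPKM of 15.7 and 26.5.

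The largest differences were in genes of varied function. Toward Cloudman S91, beside those described with their groups below, Dpep3, a membrane dipeptidase of the testis, had an FPKM of 87.9 and was not listed in B16-F1, and Pnma5 had 54.6 against 0.10. Toward B16-F1, Ppic, a cyclophilin of the secretory pathway, had 82.1 against 0.55, and Dnajc15, a mitochondrial cochaperone, had 36.0 against 0.44 (2 counts). Prdm16, a zinc finger factor of brown fat and stem cells, had 29.7 in B16-F1 and 0.24 in Cloudman S91, and Fndc3c1 had 28.1 and 0.15. In the lower line each of these 6 genes had at most 10 counts.

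Most pigment genes differed by less than 2-fold, but as a list they were not closer than genes in general. Of the 16 genes for pigment enzymes and melanosome structure, 1 was called in each direction (12.5% in all, against 5.52% of all genes). Of them 3 lay at least 2-fold higher in B16-F1 and 2 in Cloudman S91, where 2223 of all 11132 genes differed that much. The median difference of 0.35 lay between 0.19 and 0.22 above that of all genes under the scalings tried. Summed FPKM of the list was 12470 in B16-F1 and 10545 in Cloudman S91, or 2.68% and 2.40% of all FPKM. Tyr, which carries out the first step of melanin synthesis, was 20.4-fold higher in B16-F1, at 102 against 4.99 (17.8 to 23.4). The range in brackets after a fold is its 95% interval from the counts, which covers counting error only. The counts of Tyr were not whole numbers in either library. Slc24a4, a sodium, potassium and calcium exchanger of the family of the melanosome gene Slc24a5, was 21.4-fold higher in Cloudman S91, at 118 against 5.50 (17.5 to 26.4).

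The abundant proteins of the melanosome stayed inside the size rule. Dct had an FPKM of 3007 in B16-F1 and 2683 in Cloudman S91, Tyrp1 had 2901 and 3290, and Pmel had 2676 and 2291. Mlana, a melanosome membrane protein, had 1186 and 344, a 3.45-fold difference, and Slc24a5 had 332 and 105. Oca2, the channel whose loss gives pink-eyed dilution, was on the other side with 189 and 479. The remaining members were Gpnmb (1464 and 772), the transporter Slc45a2 (307 and 216), Tspan10 (174 and 124), the cation channel Trpm1 (35.7 and 35.9), the melanosomal receptor Gpr143 (30.5 and 31.8), Trpv2 (19.3 and 27.0), Mreg (24.6 and 12.9) and the copper pump Atp7a (17.9 and 9.04). None of the 30 genes for melanosome biogenesis and transport was called, against 5.52% of all genes, and their median was 0.34. The largest differences there were Rabggta (6.34 and 24.7), a subunit of the enzyme that attaches lipid anchors to Rab proteins, Rab38 (199 and 65.4), a GTPase that brings cargo to melanosomes, and Dtnbp1 (99.2 and 36.1), a subunit of the BLOC-1 complex.

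Most lineage factors were at close levels, and Foxd3, Sox6 and Irf4 were apart by 2-fold or more. Of 14 melanocyte transcription factors compared, 1 was called, with a median of -0.23. Foxd3, a factor of early neural crest cells, had an FPKM of 9.93 in Cloudman S91 and was not listed in B16-F1. Sox6 had 15.5 in B16-F1 and 4.02 in Cloudman S91, and Irf4 had 0.19 and 1.42. Tfap2a had 34.1 and 51.7, Tbx2 26.7 and 30.6, Zeb2 22.4 and 24.5, Tfe3 16.2 and 10.9, Tfeb 6.10 and 10.0, Sox5 4.49 and 5.81, Snai2 2.60 and 2.19, and Sox9 2.28 and 3.16.

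The receptors that feed into melanocytes differed more. Of 11 compared genes for melanocyte surface receptors and their ligands, 1 was called higher in B16-F1 and 4 in Cloudman S91. That is 45.5% in all, against 5.52% of all genes, and the median was -0.10. Met, the receptor for hepatocyte growth factor, was 5.26-fold higher in B16-F1, at 165 against 31.4 (interval 4.99 to 5.56). Kit, the receptor for stem cell factor, was 9.53-fold higher in Cloudman S91, at 35.6 against 3.73 (8.14 to 11.2). Ednrb, the endothelin receptor of melanoblasts, had 5.55 in Cloudman S91 and 0.08 (2 counts) in B16-F1. Mrap, which helps melanocortin receptors reach the surface, had 5.47 in Cloudman S91 and was not listed in B16-F1. Ece1, the enzyme that makes active endothelin, had 21.9 against 1.89, and Erbb3, a neuregulin receptor, had 84.2 against 23.1 without passing the rule. Mc1r, the melanocortin receptor that sets pigment type, was close, at 89.1 in B16-F1 and 78.9 in Cloudman S91. The other members were Atrn (15.9 and 16.2), Mgrn1 (29.7 and 31.9), Frzb (5.13 and 3.85) and Fgfr1 (1.41 and 0.08). None of 28 genes for cyclic AMP signalling, the pathway of Mc1r, was called, against 5.52% of all genes. Of them 2 lay at least 2-fold higher in B16-F1 and 5 in Cloudman S91.

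**Figure D2:**
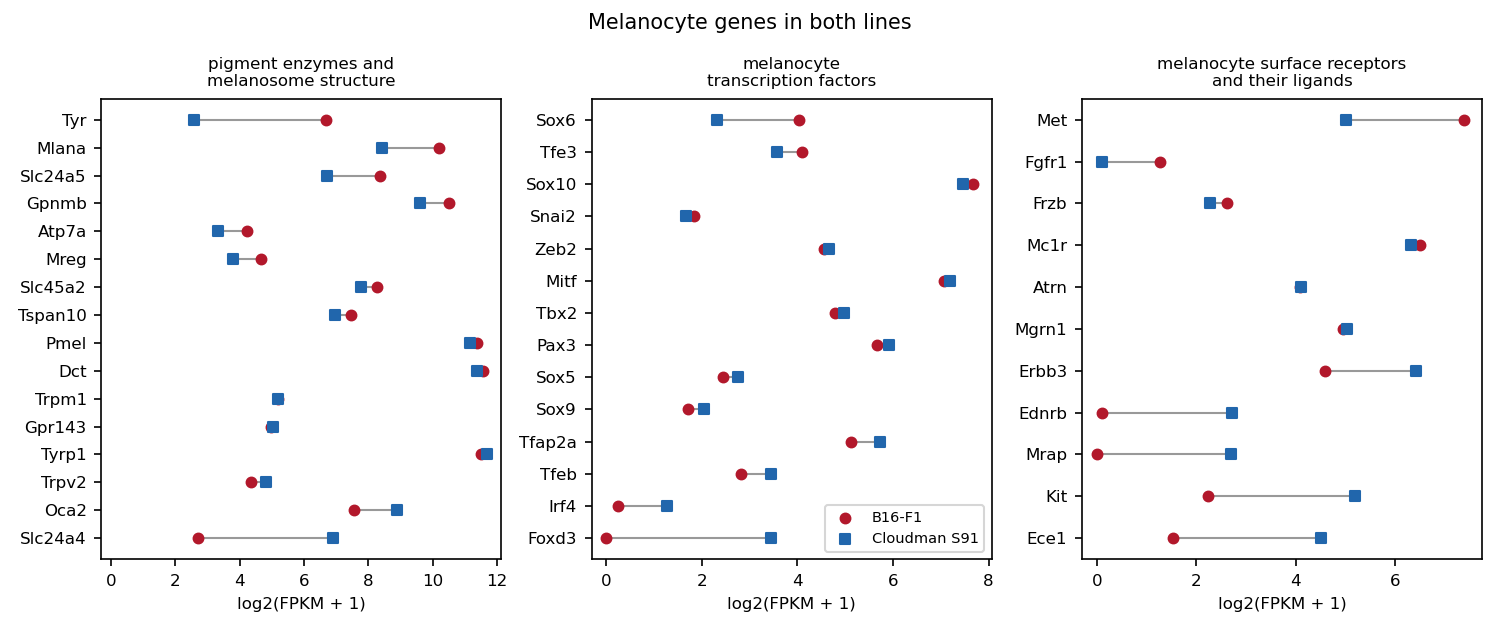
Level of every compared member of 3 melanocyte lists as log2(FPKM + 1), with a circle for B16-F1 and a square for Cloudman S91, ordered by the difference. Pairs are close for most pigment genes and transcription factors, and far apart for Tyr, Slc24a4, Foxd3, Met, Ednrb, Mrap, Kit and Ece1.

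Several genes induced by growth factor signalling through the ERK kinases were higher in Cloudman S91. Of 17 genes for ERK pathway output, 4 were called, all higher in Cloudman S91 (23.5%, against 3.19% of all genes), and the median of -0.78 lay 0.87 to 1.04 below that of all genes under the scalings tried. Etv4 and Etv5, transcription factors induced by ERK, had 17.8 against 0.48 and 37.1 against 2.28. Spry4, a feedback inhibitor of the pathway, had 7.94 against 0.41, and Dusp6, the phosphatase that switches ERK off, had 126 against 23.7. Of 24 receptor tyrosine kinases, 2 were called higher in B16-F1 and 4 in Cloudman S91 (median -0.65). Besides Met and Kit they included Epha3, an ephrin receptor, at 13.8 in B16-F1 and 0.24 in Cloudman S91, and on the other side Pdgfra, the receptor for platelet-derived growth factor, at 0.17 and 15.6, and Ptk7 at 0.21 and 8.49.

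The RAS and PI3K core held the largest difference of all genes toward Cloudman S91. Tcl1, a lymphoid and germ cell cofactor of AKT kinases, had 377 in Cloudman S91 and 0.46 in B16-F1 (an 820-fold ratio by FPKM, 437-fold by scaled counts, since the listed lengths differ, and an assembled transcript is part of it). The list as a whole had 2 calls in each direction among 51 genes and a median of 0.04. Rras2, a RAS-related GTPase, had 11.4 in B16-F1 and 0.06 in Cloudman S91, and Rasgrp1, an activator of RAS, had 0.02 and 10.5. Of 24 AP-1, immediate early and heat shock genes 4 were called, all higher in Cloudman S91 (16.7%, against 3.19% of all genes). Among them were Hspb1, a small heat shock protein, at 154 against 11.6, and Fos, 7.43-fold above its level of 2.57 in B16-F1. The median of this list was -0.60, but its summed FPKM went the other way, at 2888 in B16-F1 and 1605 in Cloudman S91. Of 19 growth factors and binding proteins 4 were called, again all higher in Cloudman S91 (median -0.72), led by the heparin-binding factor Mdk (42.1 against 1.36) and by Gas6 (7.80 against 0.13), a ligand of the TAM receptors. Pros1, another TAM ligand, had 49.5 against 8.55.

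Genes of cell division lay higher in B16-F1 as a group without large single differences. Of 52 DNA replication genes none was called, but 47 lay above 0 (90.4%, against 58.9% of all genes), and the median of 0.74 was 0.58 to 0.61 above that of all genes under the scalings tried. Mcm2, a subunit of the replicative helicase, had 188 in B16-F1 and 60.1 in Cloudman S91, and Dut, an enzyme that keeps uracil out of DNA, had 55.5 and 17.2. Of 51 mitosis genes none was called and 50 lay above 0, with a median of 0.74. The mitotic cyclin Ccnb1 had 117 and 44.1, and the kinase Aurkb had 75.7 and 29.1. DNA repair genes lay above 0 for 52 of 69 members (median 0.32, none called).

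Cell cycle inhibitors of the Ink4 locus were listed in Cloudman S91 only. Cdkn2a (chr4:89274473-89294619), which encodes inhibitors of Cdk4 and of Mdm2, had an FPKM of 29.0 there from 187 counts, at least 76.5-fold above the limit that 3 counts set in B16-F1. Its neighbour Cdkn2b (chr4:89306289-89311032) had 4.84 from 48 counts, at least 19.6-fold above that limit. Mtap, a gene of the methionine salvage pathway at chr4:89137370-89181090, near them, had 92.9 in B16-F1 and 43.3 in Cloudman S91 and was chosen for mention after its value was seen. No other of the 34 tumour suppressors and Cdk inhibitors was called. Of 31 p53 target genes 2 were called (6.45%, near the 5.52% of all genes), with a median of -0.64. Both were higher in Cloudman S91: Gdf15, a stress cytokine, at 11.8 and not listed in B16-F1, and the kinase Plk2 at 51.8 against 3.16.

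Abundant glycolysis enzymes were higher in B16-F1. Of 31 glycolysis and lactate genes 20 lay above 0 (64.5%, against 58.9% of all genes). From this list 3 were called higher in B16-F1 and 1 in Cloudman S91 (12.9% in all, against 5.52% of all genes). The median was 0.83, and the summed FPKM was 13345 in B16-F1 and 4537 in Cloudman S91. Eno1, the enolase of glycolysis, had 1841 and 139, and its near-identical copy Eno1b had 91.4 in Cloudman S91 and was not listed in B16-F1. Reads of such copies can be split, and with all enolase 1 rows added the levels were 1841 and 350, a 5.26-fold difference. Pdk1, which turns pyruvate away from mitochondria, had 11.8 and 0.10, and the glucose transporter Slc2a3 had 6.57 and 0.14. Slc2a4, the insulin-responsive glucose transporter, was on the other side with 0.36 and 9.10. Gapdh, summed with unnamed rows that carry its description, had 10080 and 3012.

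Nuclear genes of the respiratory chain and of mitochondrial ribosomes lay mostly higher in B16-F1 by small amounts. Of 84 respiratory chain subunits 65 lay above 0 (77.4%, against 58.9% of all genes), with a median of 0.33 and none called. The 42 genes of the TCA cycle and mitochondrial biogenesis were level with all genes. Their median of 0.16 lay 0.006 to 0.026 above that of all genes under the scalings tried, and none was called. Of 77 mitochondrial ribosomal proteins 62 lay above 0, with a median of 0.43 and 1 call, Mrps34, at 17.9 in Cloudman S91 and not listed in B16-F1. Cytosolic ribosomal proteins had a median of -0.00 over 82 genes, which lay 0.13 to 0.16 below that of all genes under the scalings tried. Their summed FPKM was close, at 62883 and 62590. The 1 call among them was Rpl3, at 840.5 in B16-F1 and 5.17 in Cloudman S91, and an unnamed row described as the same protein had 924 in Cloudman S91, so that named and unnamed rows together came to 842 and 930.

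Several glutathione transferases, which couple glutathione to reactive compounds, were higher in B16-F1. Of 17 glutathione transferases 6 were called higher in B16-F1 and 1 in Cloudman S91 (41.2%, against 5.52% of all genes). The wider list of 55 glutathione, thioredoxin and NRF2 target genes had 6 and 3 calls (16.4%) with a median of 0.56. Gsto1 had 25.9 in B16-F1 and 0.24 in Cloudman S91, Gsta1 had 63.8 and 2.32, Mgst1 had 25.1 and 1.82, and Gstp2 had 202 and 32.3. The alpha class genes and the pi class genes are near-identical copies whose reads can be split. Summed over 4 alpha class symbols the FPKM was 125 and 7.31, a 17.1-fold difference, and summed over the pi class it was 1247 and 795. Gstt2 was higher in Cloudman S91, at 19.7 against 0.92, as were the glutathione peroxidases Gpx7 (14.3 against 0.19) and Gpx3 (9.77 against 0.08).

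**Figure D3:**
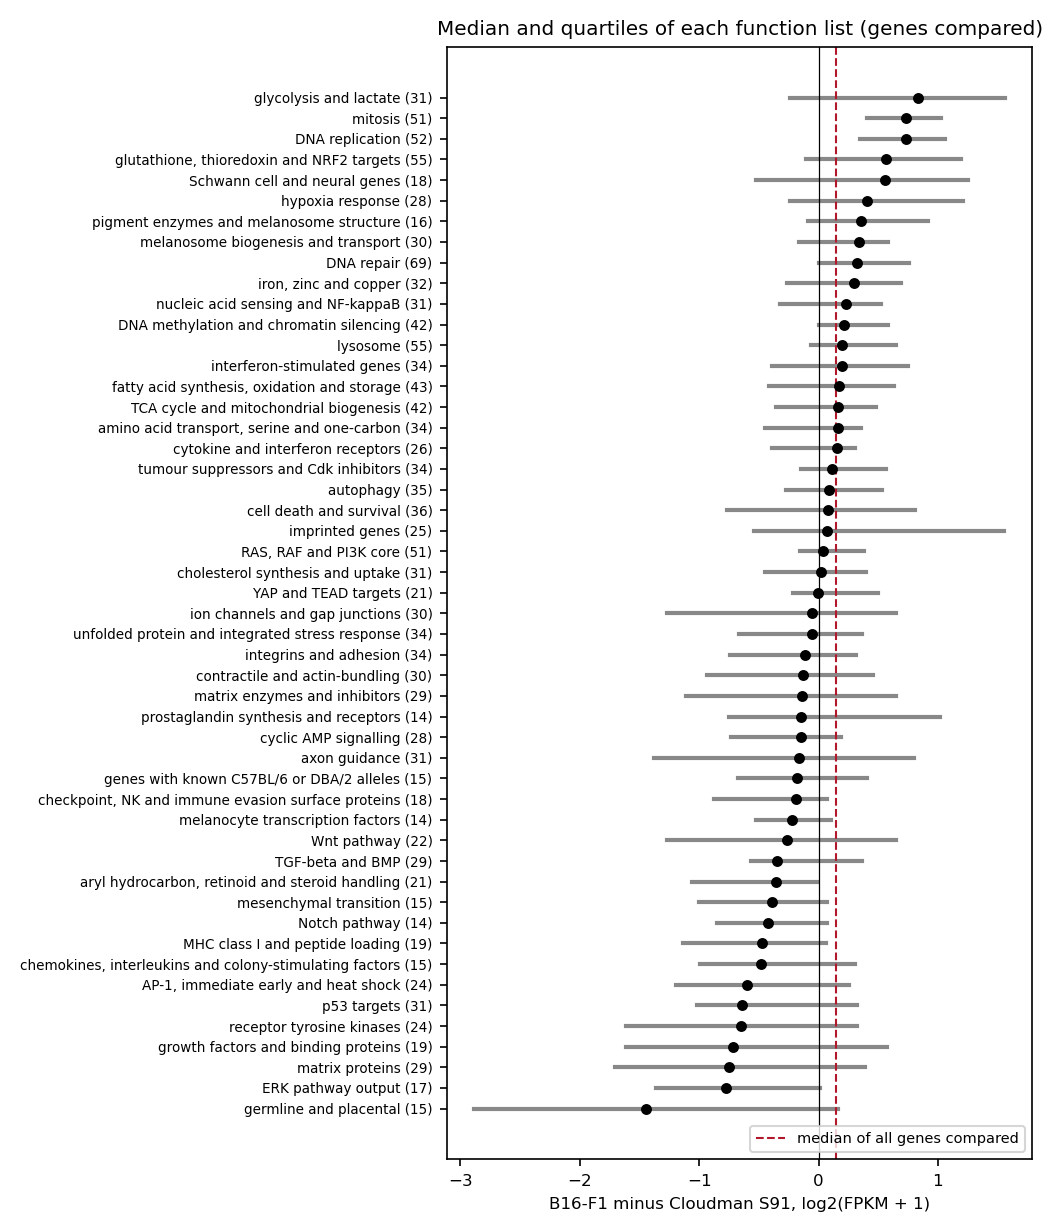
Median (dot) and quartiles (bar) of the difference in log2(FPKM + 1) for the function lists with at least 14 genes compared, with the number compared in brackets and the median of all genes dashed. Glycolysis, mitosis and DNA replication have the highest medians, from 0.74 to 0.83, and germline genes the lowest, -1.45.

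Several genes for basement membrane and fibril proteins were higher in Cloudman S91. Of 29 matrix protein genes 7 were called higher in Cloudman S91 and 1 in B16-F1, against 3.19% and 2.33% of all genes, and the median was -0.75. Nid1, which links laminin to collagen IV, had 149 in Cloudman S91 and 9.70 in B16-F1, and Col4a2 had 39.2 and 2.38. Fbn1, the main protein of microfibrils, had 13.9 and 0.10, and the proteoglycan Vcan had 18.4 and 0.67. Lamb1, a laminin chain, was the call for B16-F1, at 12.6 against 0.16. Among 16 collagens 4 were called higher in Cloudman S91 and 2 in B16-F1. Col14a1 had 37.8 against 0.10 in Cloudman S91, and Col4a5 had 5.32 against 0.04 in B16-F1.

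The fibroblast list moved with the matrix genes in part, and its part in the result was not tested. Of its 11 genes 5 reached FPKM 1 in either library, the summed FPKM was 5.21 in B16-F1 and 22.9 in Cloudman S91, and 15.6 of the latter was Pdgfra. Of the 5, 4 lay higher in Cloudman S91 (median -0.74), among them Pdgfrb at 0.25 in B16-F1 and 2.04 in Cloudman S91 and Col3a1 at 0.68 and 1.81. The list's other members with a value stood below FPKM 1 in both libraries, with Col1a1 at 0.89 and 0.91, Dcn at 0.12 and 0.08, and Lum at 0.33 and 0.27.

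Enzymes that remodel matrix were called in both directions, 2 higher in B16-F1 and 5 in Cloudman S91 of 29 genes (median -0.14). Mmp2, a gelatinase, had 120 in Cloudman S91 and 1.71 in B16-F1, a 70.2-fold difference (52.6 to 95.8). The protease inhibitor Serpine2 had 37.3 and 2.02, and the cathepsin Ctsk 22.8 and 1.37. Plod2, which hydroxylates collagen lysines, was higher in B16-F1, at 31.1 against 0.30. Next to each other on chromosome 11, Jup, P3h4 and Fkbp10 were all called higher in Cloudman S91. P3h4 and Fkbp10 act in collagen folding and cross-linking and had 8.38 against not listed and 41.2 against 3.47, and Jup, the plakoglobin of desmosomes, had 19.8 against 0.53.

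The compared cadherins and protocadherins lay mostly higher in Cloudman S91, while single integrin and guidance genes were called in both directions. All 7 compared cadherins lay below 0, and 14 of 16 protocadherins did (median -1.08). Of the protocadherins 5 were called higher in Cloudman S91 and 1 in B16-F1 (37.5% in all, against 5.52% of all genes). Many of these share exons or sequence. All 16 reached FPKM 1 in Cloudman S91 and 4 did in B16-F1, and for the cadherins it was 7 and 4. Genes compared only through Cloudman S91 lie below 0 by the filter alone. Cdh13, a cadherin without a cytoplasmic tail, was 23.7-fold higher in Cloudman S91 (85.7 against 3.61), and the other 6 compared cadherins were not called. Itga6, a laminin receptor subunit, had 24.1 in B16-F1 and 3.09 in Cloudman S91, and Itga7 had 0.11 and 4.26. Of 31 axon guidance genes 3 were called higher in B16-F1 and 2 in Cloudman S91. Nrp2, a coreceptor for class 3 semaphorins, had 63.3 in B16-F1 and 0.26 in Cloudman S91, a 243-fold difference (139 to 471), and the netrin receptor Unc5c had 12.7 and 0.07. Of 22 semaphorins and plexins 3 were called, all class 3 semaphorins higher in Cloudman S91. All 22 reached FPKM 1 in Cloudman S91 and 14 did in B16-F1. Sema3g had 41.2 against 0.85, Sema3d 9.78 against 0.42 and Sema3c 8.40 against 0.58. Tjp1, a scaffold of tight junctions, had 16.7 in B16-F1 and 0.23 in Cloudman S91, and Cadm1, an adhesion molecule, had 32.3 and 0.19.

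Most genes of antigen presentation lay higher in Cloudman S91. Of 19 genes for MHC class I and peptide loading 13 lay below 0 and 2 were called, both higher in that line, with a median of -0.47. Tap2, a subunit of the peptide transporter, had 7.80 against 0.86. H2-L had 52.0 and was not listed in B16-F1; it is a class I gene that only some mouse haplotypes carry and it shares sequence with H2-D1. The sum of H2-D1 and H2-L was 143 in Cloudman S91 and 48.7 in B16-F1. B2m, the light chain, was close, at 278 and 215. Interferon-stimulated genes were close as a list, with 2 of 34 called and a median of 0.19, and both calls, Oas1a (7.80, not listed in Cloudman S91) and Herc6 (7.60 against 0.90), were higher in B16-F1. Mb21d1, the DNA sensor cGAS, had 6.85 in B16-F1 and 0.13 in Cloudman S91, and the NF-kappaB subunit Nfkb1 had 15.8 and 3.11.

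Cytokine receptors were called in both directions. Osmr and Lifr, receptors of the interleukin-6 family, had 14.7 against 0.32 and 10.97 against 0.29 in Cloudman S91. Il17ra and Ifngr1, the receptor chains for interleukin-17 and interferon gamma, had 7.87 against 0.14 and 6.36 against 0.13 in B16-F1. Cd200, a surface protein that dampens myeloid cells, had 47.1 in Cloudman S91 and 0.24 in B16-F1, and Nectin3 had 0.13 and 13.5.

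A pair of Fc receptor genes of immune cells, named for their large differences, had much higher levels in Cloudman S91. Fcgr2b, the inhibitory receptor for immunoglobulin G, had an FPKM of 166 from 1690 counts in Cloudman S91 and 0.24 from 3 counts in B16-F1. Fcer1g, the signalling chain shared by several Fc receptors, had 122 and 1.05. The macrophage markers did not move with them: their summed FPKM was 0.97 in Cloudman S91 and 3.49 in B16-F1, and Ptprc, the pan-leukocyte marker, was at 0.06 in B16-F1 and not listed in Cloudman S91. Of 36 cell death and survival genes, Gsdmc, a pore-forming gasdermin, had 51.7 in B16-F1 and was not listed in Cloudman S91, while Bok (13.5 against 0.72) and Casp1 (6.29 against 0.15) were called higher in Cloudman S91.

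Germline genes were among the largest differences, most of them higher in Cloudman S91. Of 15 compared germline and placental genes 5 were called higher in Cloudman S91 and 1 in B16-F1, with a median of -1.45. That is 40.0% in all, against 5.52% of all genes. Of the 15, 13 reached FPKM 1 in Cloudman S91 and 6 in B16-F1, so many were compared only through Cloudman S91, which fixed their direction. This list includes Tcl1, described above, and its 1 call for B16-F1 was Peg10, described below. Piwil2, which acts with small RNAs in germ cells, had 12.6 against 0.14, and Lin28a, an RNA-binding protein of stem cells, had 5.97 and was not listed in B16-F1. Of 14 MAGE, XLR and RHOX genes 7 were called, all higher in Cloudman S91 (median -2.31). The 5 Rhox2 genes, X-linked homeobox genes of the reproductive tract, summed to 199 in Cloudman S91 and 0.15 (1 count) in B16-F1. They are near-identical copies with fractional counts, so the sum is firmer than the split. Outside the germline and placental list, B16-F1 was higher for Fkbp6, a chaperone of meiosis, at 112 against 1.94. It was also higher for Foxr2, a forkhead factor, at 32.7 and not listed in Cloudman S91.

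Hox genes, which set position along the body axis, were called higher in B16-F1 for 4 of 9 compared members, and 8 of 9 lay above 0. The calls were 44.4%, against 2.33% of all genes. Of 21 listed Hox genes, these 9 reached FPKM 1 in B16-F1 and 1 did in Cloudman S91. Most were thus compared only through B16-F1, which fixed their direction, so these shares are no measure of the family. Hoxa10 (7.13), Hoxa11 (3.74), Hoxd13 (3.21) and Hoxd4 (3.19) were not listed in Cloudman S91.

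Imprinted genes, which are expressed from 1 parental allele, were called for 6 of 25 members, 5 of them higher in B16-F1. That is 24.0% called, against 5.52% of all genes. Plagl1, a zinc finger factor, had 118 in B16-F1 and 0.67 in Cloudman S91, a 176-fold difference (120 to 270). Slc22a18 had 3.53 and was not listed in Cloudman S91, and Atp10a had 16.9 in Cloudman S91 and was not listed in B16-F1. The remaining 3, Sgce, Peg10 and Ppp1r9a, sit side by side on chromosome 6.

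That stretch of chromosome 6 held the most genes of 7 runs of at least 3 neighbouring compared genes called in the same direction. It covers chr6:4674350-6217304 and holds 6 genes, all higher in B16-F1. Sgce, a sarcoglycan, had 44.6 in B16-F1 and 0.24 in Cloudman S91, Peg10, a retrotransposon-derived gene of the placenta, had 27.1 and 0.55, and Ppp1r9a, an actin-binding phosphatase regulator, had 9.09 and 0.14. The paraoxonases Pon3 and Pon2 had 9.66 and 0.08, and 39.6 and 0.08, each with 1 count in Cloudman S91. Slc25a13, the mitochondrial aspartate and glutamate carrier, had 37.3 and was not listed there. All 6 had whole counts. In the mammary line 4T1, Sgce and Peg10 were not listed, while Pon2 had 36.9, Pon3 7.98 and Slc25a13 7.89.

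Promoters of 2 genes of this run and of 2 genes from runs higher in Cloudman S91 are shown because they span the range of CG content. They are RefSeq windows of GRCm38.p6 as above, with CG dinucleotides in capitals.
Pon2 (chr6:5298291-5298590, minus strand): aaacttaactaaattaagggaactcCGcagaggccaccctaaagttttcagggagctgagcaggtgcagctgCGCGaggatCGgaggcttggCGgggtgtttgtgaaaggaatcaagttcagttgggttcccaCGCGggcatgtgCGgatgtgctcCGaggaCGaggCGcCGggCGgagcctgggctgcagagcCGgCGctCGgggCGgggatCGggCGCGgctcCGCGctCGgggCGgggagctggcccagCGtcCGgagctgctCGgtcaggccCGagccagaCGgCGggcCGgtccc
Slc25a13 (chr6:6217124-6217423, minus strand): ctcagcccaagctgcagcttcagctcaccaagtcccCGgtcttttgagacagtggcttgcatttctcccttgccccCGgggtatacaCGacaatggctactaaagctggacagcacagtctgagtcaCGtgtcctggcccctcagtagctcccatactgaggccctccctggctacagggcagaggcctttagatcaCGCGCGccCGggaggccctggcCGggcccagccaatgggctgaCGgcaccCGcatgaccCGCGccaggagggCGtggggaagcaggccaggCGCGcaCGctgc
Mrgpra4 (chr7:47982247-47982546, minus strand): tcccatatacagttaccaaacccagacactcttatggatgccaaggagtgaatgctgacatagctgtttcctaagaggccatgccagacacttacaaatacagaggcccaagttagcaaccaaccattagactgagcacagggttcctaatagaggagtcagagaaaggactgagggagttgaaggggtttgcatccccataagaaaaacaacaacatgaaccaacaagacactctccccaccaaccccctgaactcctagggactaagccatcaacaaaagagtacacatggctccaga
Rhox2h (chrX:37673228-37673527, minus strand): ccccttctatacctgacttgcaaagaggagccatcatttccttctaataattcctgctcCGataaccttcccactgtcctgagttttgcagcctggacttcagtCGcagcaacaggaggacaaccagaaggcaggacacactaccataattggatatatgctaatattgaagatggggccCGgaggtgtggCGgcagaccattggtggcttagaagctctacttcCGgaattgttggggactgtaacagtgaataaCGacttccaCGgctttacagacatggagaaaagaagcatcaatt
The Pon2 window holds 31 CG dinucleotides and that of Slc25a13 holds 17, against a median of 22 in all compared windows. The Rhox2h window holds 7 and that of Mrgpra4 holds 0. Of all compared windows 86.0% held at least 10.

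The other runs held 3 to 5 genes. On chromosome 9, Gsta1, Gm3776, Gm10639, Gsta2 and Mb21d1 were higher in B16-F1. On chromosome 7, 3 Mrgpra genes, receptors of itch neurons, were listed in Cloudman S91 only, with Mrgpra4 at 51.6. On the X chromosome, the 5 Rhox2 genes and a run of Xlr (41.4), 3830403N18Rik (50.5) and Gm773 (70.5), all 3 not listed in B16-F1, were higher in Cloudman S91, and a run of Luzp4 (11.6) and 4 predicted genes, none listed in Cloudman S91, was higher in B16-F1. The Mrgpra, Rhox2, Gsta and Luzp4 runs have fractional counts and hold similar copies, so their members are not independent of each other.

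**Figure D4:**
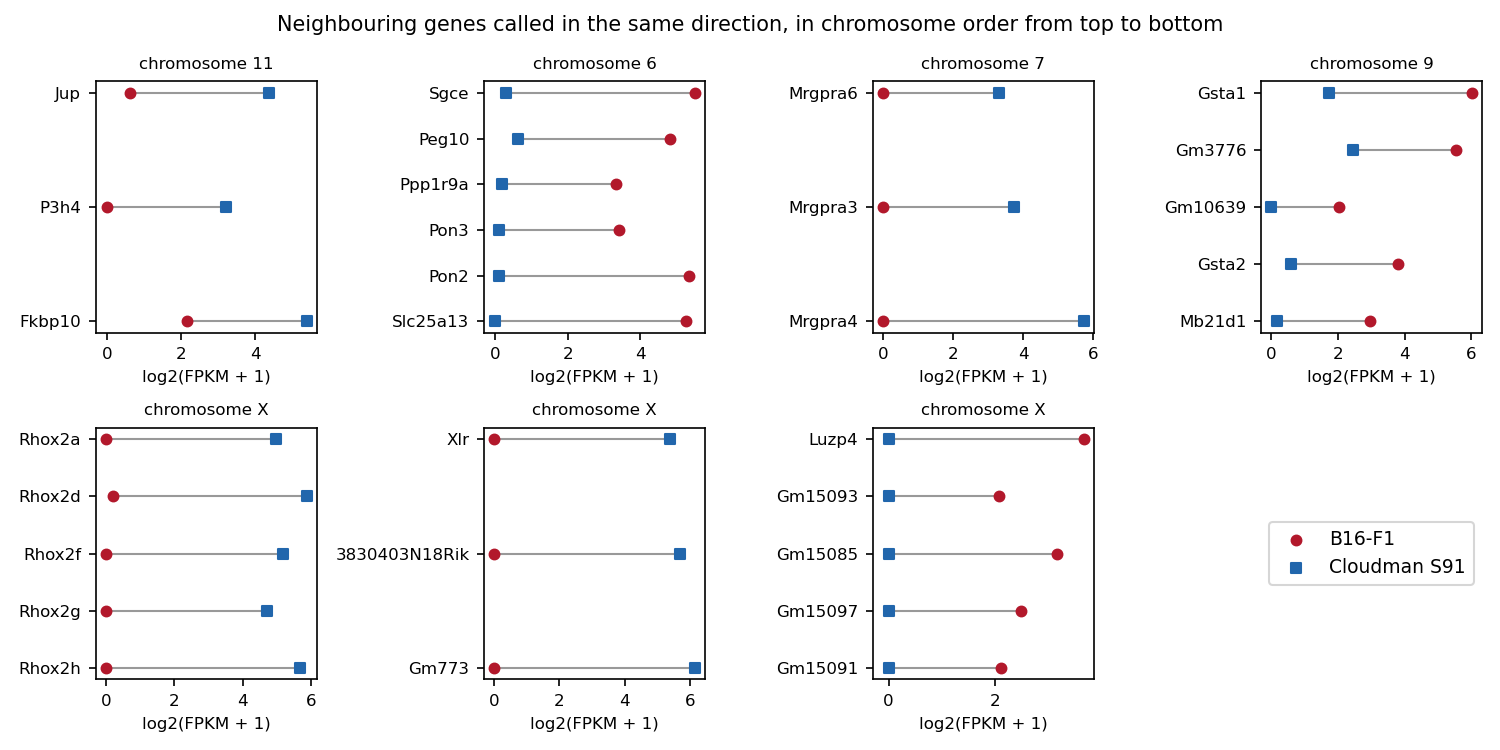
Level of each gene of the 7 runs as log2(FPKM + 1), with a circle for B16-F1 and a square for Cloudman S91 and genes in chromosome order from top to bottom. In each run the genes of the lower line lie at or near 0 for most members.

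Differences also varied by chromosome. The median lay between -0.22 on chromosome 18 and 0.55 on chromosome 6, against 0.14 over all genes. Chromosome 6 also had the highest share of genes called higher in B16-F1, 27 of 540 genes, and chromosome X the highest share called in either direction, 10.5% of 361. In windows of 20 megabases with at least 30 compared genes, a size chosen after the chromosome medians were seen, the median ranged from -0.56 to 1.2 over 126 windows, and the middle of the windows lay between -0.05 and 0.31. The highest was the first window of chromosome 6, where 10 of 37 genes were called higher in B16-F1 and none in Cloudman S91, among them the run above, Dlx6 and Met. All 8 windows of chromosome 6 had medians of 0.39 or more. The lowest were the last windows of chromosome 10, where 8.24% of the 85 genes between 120 and 140 megabases lay above 0 and the median was -0.56, with 1 gene called higher in B16-F1 and 3 in Cloudman S91.

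**Figure D5:**
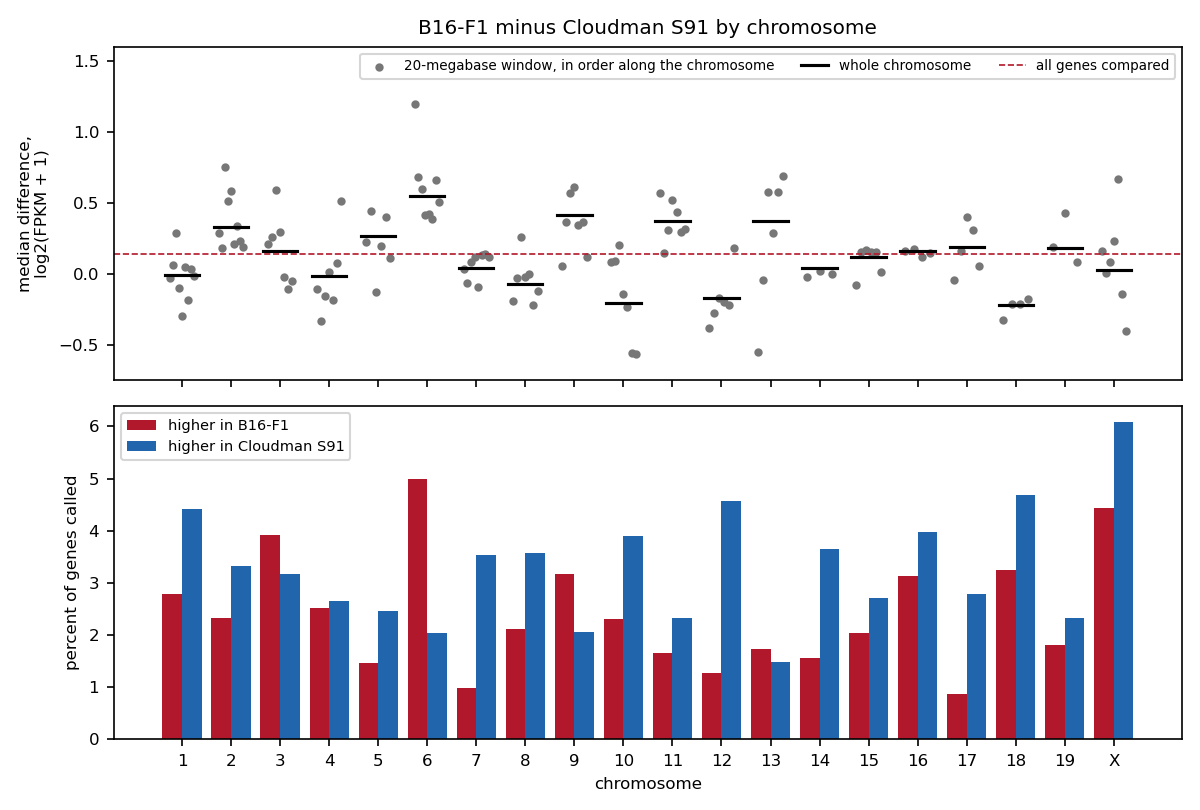
Upper panel, median difference in log2(FPKM + 1) for each chromosome (line) and each window of 20 megabases with at least 30 genes (dots, in order along the chromosome), with the median of all genes dashed. Lower panel, percent of compared genes called in each direction; chromosome 6 stands highest for B16-F1 (27 of 540 genes) and chromosome X for Cloudman S91 (6.09%).

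Further groups held single large differences. Lipid handling had 3 calls for Cloudman S91 and 1 for B16-F1 of 43 genes, led by Lpl, lipoprotein lipase, at 18.7 against 0.11. Of 14 genes for prostaglandin synthesis and receptors 3 were called higher in B16-F1 and 2 in Cloudman S91 (35.7%, against 5.52% of all genes). Ptgr1, which inactivates prostaglandins, had 31.3 in Cloudman S91 and was not listed in B16-F1, the prostacyclin receptor Ptgir had 49.4 and 1.51, and the prostaglandin D synthase Ptgds had 90.9 and 421. Of 9 compared potassium channel genes 4 were called, all higher in Cloudman S91 (44.4%, against 3.19% of all genes). Among 54 listed, these 9 reached FPKM 1 in Cloudman S91 and 1 did in B16-F1. The filter thus fixed the direction of most, so the share and the median of -1.84 are no measure of the family. Kcna6 had 17.2 against 0.04. Disp1, which releases hedgehog proteins from cells, had 373 in Cloudman S91 and 6.41 in B16-F1 (58.2-fold by FPKM and 106-fold by scaled counts, since the listed lengths differ), and Smo, the hedgehog signal transducer, had 4.77 and 32.2. Slc6a4, the serotonin transporter, had 42.3 in Cloudman S91 and 0.04 in B16-F1 from 1 count. The nuclear receptor Rxra had 253 and 25.2, and the aryl hydrocarbon receptor Ahr 16.6 and 3.27.

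Some functions had few or no calls on the reported FPKM. Of 322 zinc finger genes named Zfp 3 were called (0.932%, against 5.52% of all genes). None of 56 Rab GTPase genes, 45 proteasome subunits, 35 autophagy genes or 34 genes of the unfolded protein response was. At the share of all genes, lists of that size would hold few calls. With depth-scaled expected counts 4 of 57 Rab genes were called higher in B16-F1 and 2 in Cloudman S91, where 8.13% of all genes were called. The Zfp median of -0.10 lay 0.24 to 0.27 below that of all genes, and the proteasome median of 0.49 lay 0.33 to 0.35 above it under the scalings tried.

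Genes with alleles known to differ between C57BL/6 and DBA/2 mice gave a mixed picture, and the sequence of the transcripts was not analysed here. Of 25 such genes 15 were compared and 2 were called, both higher in Cloudman S91: Ahr, and Apobec3, a restriction factor of retroviruses, at 6.83 and not listed in B16-F1. Myo5a, the motor whose dilute allele was found in DBA mice, had 91.4 in B16-F1 and 64.3 in Cloudman S91 by FPKM, a 1.42-fold difference, and 2.93-fold by scaled counts because the listed lengths differ. Gpnmb, which carries a loss allele in DBA/2J mice, had 1464 and 772. The Y-linked genes Ddx3y, Eif2s3y, Kdm5d and Uty stood at FPKM 0.23 or less in both lines, with 1 to 8 counts each.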

How the data were processed

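The tables deposited by the authors hold, per gene, an expected count and an FPKM value, per the file headers. Per the labels' protocols, RNA of frozen cell pellets was treated with DNase, enriched with oligo(dT), fragmented and amplified. HISAT, StringTie and the build mm10 are named in the submitters' processing notes; neither these notes nor the labels say which tool counted the reads. Rows without a symbol (2.36% of counts in B16-F1, 2.24% in Cloudman S91) were left out. Symbols were matched between tables, an unlisted gene was set to 0, and genes at FPKM 1 or more in either library were compared as log2(FPKM + 1) with a pseudocount of 1. A fold is the ratio of FPKM with a 95% binomial interval from the expected counts. Where a gene was not listed in the lower line, the fold is a lower bound against 3 counts in that library. Counts within 0.005 of a whole number were called whole. The steps were tested on simulated data.

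Members and lists were chosen with earlier results of these data known. Genes named were the 15 largest differences in each direction at FPKM 10 or more with a plain symbol, the 5 highest of each library, up to 4 of each list or family by size of difference, all strain and sex chromosome genes, and genes in runs. Members named beyond these were chosen after their values were seen. Alternatives were 2 pseudocounts, other filters, scalings and size rules. Python 3.11.15, NumPy 2.4.6, pandas 2.3.3, SciPy 1.17.1 and matplotlib 3.10.9 were used.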

Additional observations from a re-analysis of the deposited data

Results flagged for a closer look

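Rows without a gene symbol lie outside the comparison of named genes, and some carried signal. Of 420 such rows, 350 had an FPKM of 1 or more in either melanoma library, and by the same size rule 11 were higher in B16-F1 and 86 in Cloudman S91. Of these 350, 14 were listed only in B16-F1 and 72 only in Cloudman S91. Among them, a row described as ribosomal protein L3 had an FPKM of 924 in Cloudman S91 and 1.02 in B16-F1, while the named gene Rpl3 had 5.17 and 840.5. Unnamed rows were added to a named gene only for this protein, enolase 1 and Gapdh.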

How the results depend on the processing

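With 1 library per line, the limits are those of size alone: no value has a replicate, so each difference holds for these libraries only, and line, strain and library cannot be told apart. No paired analysis was possible because each line has 1 library, and no replicate could be left out. No call among the named genes turned direction under the alternatives run. Of 233 named genes called, 94 were still called at a pseudocount of 5. Foxd3, Ednrb, Mrap, Ece1, Spry4, Pdgfra, Gas6 and the 4 Hox genes were among those no longer called. Under the scalings 222 to 232 were still called, and Nfkb1 and Hoxd4 were among those lost. The number of genes called moved with the pseudocount, to 1204 at 0.1 (541 higher in B16-F1, 663 in Cloudman S91) and 173 at 5 (60 and 113), and with the size rule, to 2223 at 2-fold (1209 and 1014) and 255 at 8-fold (93 and 162). It moved to 935 (398 and 537) with TPM, 1059 (403 and 656) with TPM without the 50 most abundant genes, and 966 (441 and 525) with depth-scaled expected counts. These 3 units put low genes at higher values against the same pseudocount of 1 and let more genes pass the filter. The median of all genes became -0.10 with TPM without the 50 most abundant genes, 0.029 with median-of-ratios scaling and -0.031 with upper-quartile scaling. Of the 355 genes called higher in Cloudman S91, 352 or more were still called under each scaling, and of the 259 called higher in B16-F1, 224 to 256 were. The remaining alternatives, which changed the filter, the symbols, the listed lengths or the whole counts, gave 510 to 614 calls. Of 1764 values for 126 lists and families 1274 did not move, and of 3262 values for 466 named genes 2228 did not. The medians of 11 of 125 lists and families crossed that of all genes under some scalings: Schwann cell and neural genes, epithelial junctions, tumour suppressors, amino acid transport, cathepsins, ephrins, RGS proteins, myosins, chemokines, guanylate-binding GTPases and WNT ligands.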

Other observations

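Other lists held single genes with large differences that the comparisons above do not use. Of 22 Wnt pathway genes 1 was called higher in B16-F1 and 3 in Cloudman S91, among them Nkd2, a feedback inhibitor of the pathway, at 16.6 in Cloudman S91 and 0.38 in B16-F1, and the receptor Fzd9 at 10.0 and 1.07. Of 29 genes of TGF-beta and BMP signalling, the receptor Bmpr1a (15.7 and 0.30) and its effector Smad1 (5.95 and 0.09) were both called higher in B16-F1. Of 55 lysosome genes 2 were called higher in B16-F1 and 3 in Cloudman S91 (9.09% in all, against 5.52% of all genes), with the calcium channel Mcoln3 at 128 in Cloudman S91 and 6.37 in B16-F1, the sulfatase Galns at 123 and 6.29, and the sulfatase Arsb at 3.32 and 20.02. Of 30 contractile and actin-bundling genes 4 were called, all higher in Cloudman S91, among them the myosin light chain Myl9 at 34.8 against 2.25 and Tagln at 7.92 against 0.29. A pair of deubiquitinases stood apart among 43 compared: Usp54 had 105 in Cloudman S91 and 4.68 in B16-F1, and Usp25 had 0.12 and 16.5.

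Of 18 Schwann cell and neural genes 3 were called higher in B16-F1 and 1 in Cloudman S91. The 3 were Uchl1, a neuronal ubiquitin hydrolase, at 19.9 against 0.86, S100b, a calcium-binding protein of glia and melanocytes, at 22.97 against 2.0, and Cadm1.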
